A study of Mus musculus with 7 samples.

Results

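The mitosis genes are a list of 40 mouse genes whose products carry a cell through nuclear and cell division, and the rule that picks them is a list of names that uses no measured value, although the list was drawn up with earlier results of these data known. Of these, 39 were matched by gene symbol among the 23930 genes of the deposited table, and the cyclin gene Ccnb1 was not matched there, so its expression was not analysed here. Bulk RNA was measured in Pax7-GFP cells sorted by flow cytometry from the hind leg muscles of mice kept in room air (normocapnia, libraries NC1, NC2 and NC3) or in raised carbon dioxide (hypercapnia, libraries HC1, HC2, HC3 and HC4). All the mice carried the tamoxifen-inducible Pax7-GFP reporter, in which Cre driven from Pax7 (a transcription factor that marks muscle satellite cells) switches on a GFP that stays on in every descendant cell. The growth notes call the mice C57/B6 littermates, while the genotype label differs between samples and runs from C57BL/6 for NC1 to C57BL/12 for HC4. Both groups received tamoxifen from 12 weeks of age, were housed in their gas condition for 4 weeks and were collected at 16 weeks, and by the methods of the study the leg muscles had been injured with cardiotoxin, a venom toxin that kills myofibers, 3 days before collection. The labels do not mention injury, and the name of the deposited table carries a different time, 40 h. Mice of both sexes were used and the labels do not give the sex, or whether a library held 1 mouse or a pool. The unit is RPM, reads scaled so that every library has the same total, from an amplicon panel in which each gene is read through its own primer pair. Levels of a gene, and sums over a list of genes, are therefore compared here between libraries. Such sums weigh most the genes with the highest RPM, and an order of genes by RPM is not an order of abundance. Over all genes NC3 stood furthest apart, with a chi-square over its degrees of freedom of 326.0 to 475.5 against each other library, while NC1 with NC2 gave 337.0 and the other pairs less. The closest pairs were HC1 with HC2 (22.5) and HC3 with HC4 (26.0), and no other pair was under 98.5. The hypercapnia libraries thus fell into close pairs, and n = 4 below counts libraries. The top 10 genes of NC3 held 16.6% of its reads, against 8.36% to 12.1% in other libraries, and it had the fewest genes at 1 RPM (10619). Nothing in the labels says that the libraries came from separate mice, so each p-value below sets a difference against the spread between these libraries. In limma that spread is pooled over both groups.

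Satellite cells are the stem cells of skeletal muscle. They rest outside the cell cycle in intact muscle, enter it after injury and divide to supply new myoblasts, and macrophages and other cells that fill the injured tissue divide as well. Most genes of the list are silent in resting cells and are transcribed together late in the cycle, in G2 and mitosis, by a complex of B-MYB, FOXM1 and the MuvB proteins. Their products then act in a fixed order. Cyclin-dependent kinase 1 with its cyclins starts mitosis, kinetochores attach chromosomes to the spindle, a checkpoint holds the anaphase-promoting complex until all are attached, separase cuts cohesin, and the central spindle and a contractile ring split the cell.

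Levels of the mitosis genes were high in NC1, low in NC2 and NC3, and in between in most hypercapnia libraries. Summed over the 39 genes, the level was 2417.4 RPM in NC1, 280.5 in NC2 and 240.4 in NC3, against 1090.9 in HC1, 1012.3 in HC2, 2023.0 in HC3 and 1555.2 in HC4. The normocapnia libraries therefore held both the highest and the lowest sums, with all 4 hypercapnia libraries inside that range. Gene by gene the order was much the same. NC1 was the highest of the 7 libraries for 29 genes, HC3 for 7, HC2 for 2 (Espl1 and Incenp) and NC2 for 1 (Pttg1). The lowest library was NC3 for 24 genes and NC2 for 15, and no other library was lowest for any gene. All 4 hypercapnia libraries lay above both NC2 and NC3 for 37 of 39 genes, the exceptions being Pttg1 and Incenp, and all 4 lay between the lowest and the highest normocapnia library for 30.

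**Figure D1:**
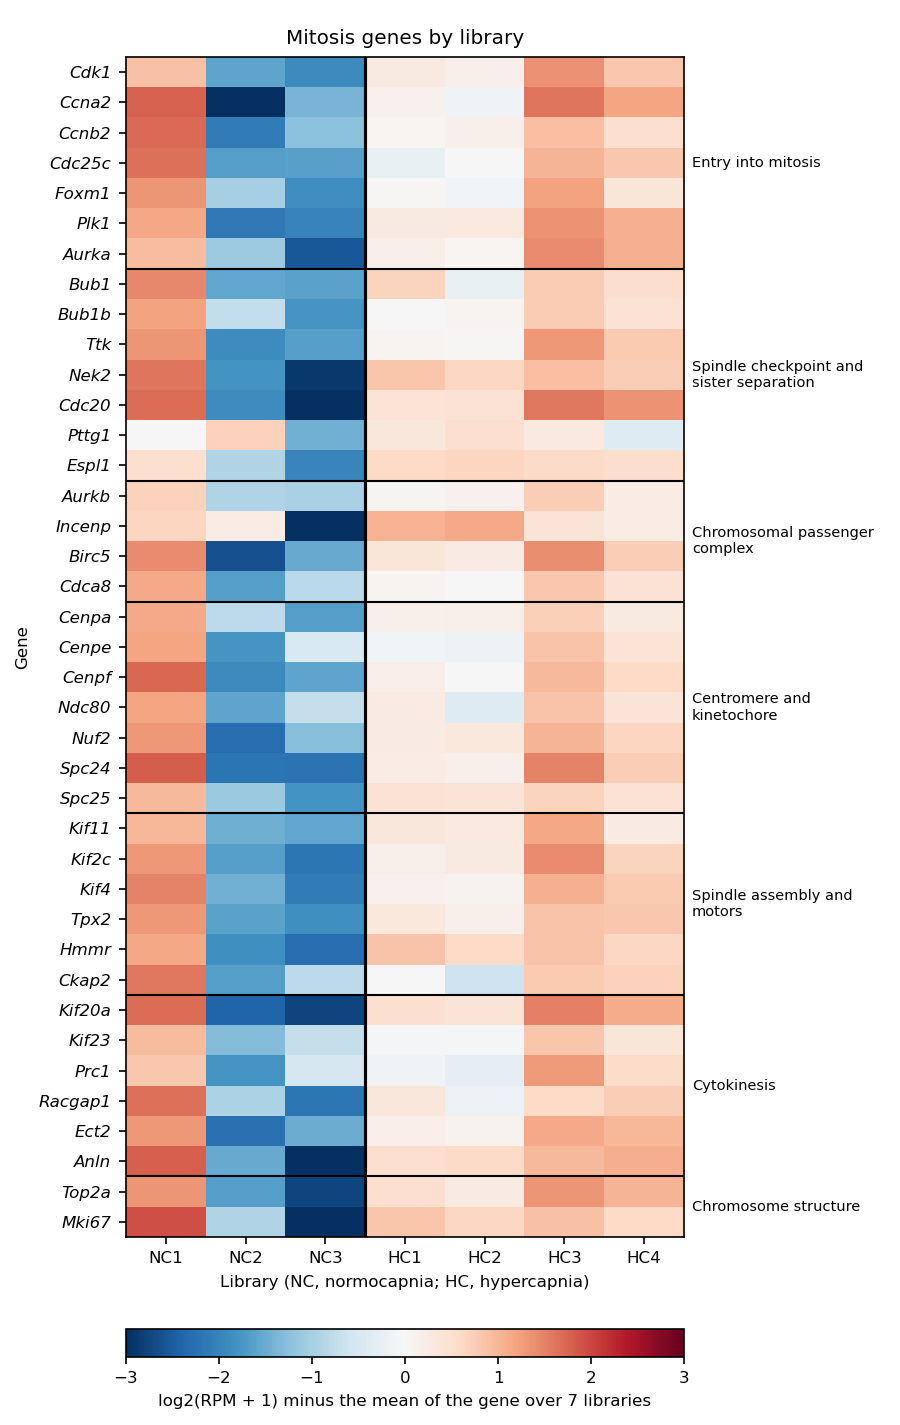
Each row is a mitosis gene, ordered by role, and each column a library; colour gives log2(RPM + 1) minus the mean of that gene over the 7 libraries, with colours ending at 3 below and above the mean. NC1 is the highest library for 29 of 39 genes, and NC2 or NC3 is the lowest for every gene.

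The spread among normocapnia libraries was accordingly wide. On the log2(RPM + 1) scale the SD within normocapnia had a median of 1.85 over the 39 genes (0.93 for Aurkb to 2.96 for Mki67, n = 3), whereas the SD within hypercapnia had a median of 0.46 (0.05 for Espl1 to 0.82 for Ccna2, n = 4). The SD was larger in normocapnia for 39 of 39 genes. That was also true of 81.1% of the 12504 genes that averaged 1 RPM or more, for which the median SDs were 0.68 and 0.29. NC1 exceeded NC2 by a median ratio of 10.1 (0.604 for Pttg1 to 33.7 for Ccna2), while the highest hypercapnia library exceeded the lowest by a median ratio of 2.08 (1.11 to 3.32). Within hypercapnia the libraries fell into pairs. HC3 and HC4 both lay above HC1 and HC2 for 31 genes, and HC3 lay above HC4 for 37.

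Promoters of these genes are known for a pair of elements, the cell cycle homology region, bound by MuvB complexes, and the CCAAT box, bound by NF-Y. RefSeq promoter windows of the GRCm38.p6 assembly, from 250 bases before to 50 after the annotated start, were at hand for 32 of the 40 listed genes, and were searched on both strands for the cell cycle homology region (TTTGAA or TTCGAA) and for CCAAT. Neither motif contains the other, and a match of each shared 1 base in Cdca8 alone. The cell cycle homology region was present in 26 windows (81.2%), against 17.0% of the 9523 genes that averaged 1 RPM or more and had a window, and 21.7% of all 27025 genes with a window. CCAAT was likewise present in 26 (81.2%), against 42.0% and 41.1%. Both were found in 23 windows (71.9%), against 6.97% and 8.61%. Of the DNA replication genes, which act earlier in the cycle, 33 had a window, and the cell cycle homology region was in 18.2% of these, CCAAT in 66.7% and both in 15.2%. A match is only a match of letters and no binding was measured here.

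The 35 cell cycle homology region matches and 56 CCAAT matches were placed differently. CCAAT lay before the start in 53 matches and after it in 3, with a median first base of -55, whereas the cell cycle homology region lay before it in 16, after it in 18 and across it in Prc1, with a median first base of 3. Anln, Kif2c and Ndc80 had the cell cycle homology region alone, Nek2, Cenpe and Ccnb1 had CCAAT alone, and Pttg1, Birc5 and Nuf2 had neither in this window. The 100 bases before the start held both motifs in 5 genes, which are printed below from 5′ to 3′ on the strand of the gene, with Pttg1 as the gene without a match whose levels followed the others least. Capitals mark CCAAT or its complement ATTGG, and TTTGAA or its complement TTCAAA.
Cdk1 (chr10:69352913-69353012, minus strand): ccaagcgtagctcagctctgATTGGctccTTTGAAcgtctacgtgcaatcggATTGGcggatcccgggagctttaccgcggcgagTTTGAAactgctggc
Cdc20 (chr4:118437344-118437443, minus strand): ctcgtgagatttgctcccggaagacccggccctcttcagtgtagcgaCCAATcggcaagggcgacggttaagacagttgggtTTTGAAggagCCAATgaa
Espl1 (chr15:102296193-102296292, plus strand): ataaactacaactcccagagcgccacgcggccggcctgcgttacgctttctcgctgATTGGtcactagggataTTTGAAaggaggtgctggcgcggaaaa
Top2a (chr11:99024190-99024289, minus strand): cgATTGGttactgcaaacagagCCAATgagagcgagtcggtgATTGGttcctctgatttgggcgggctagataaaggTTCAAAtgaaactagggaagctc
Kif11 (chr19:37376282-37376381, plus strand): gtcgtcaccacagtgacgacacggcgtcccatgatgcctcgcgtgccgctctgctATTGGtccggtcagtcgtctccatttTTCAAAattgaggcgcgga
Pttg1 (chr11:43425982-43426081, minus strand): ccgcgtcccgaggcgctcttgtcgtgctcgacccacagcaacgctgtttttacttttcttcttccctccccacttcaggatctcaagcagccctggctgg

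**Figure D2:**
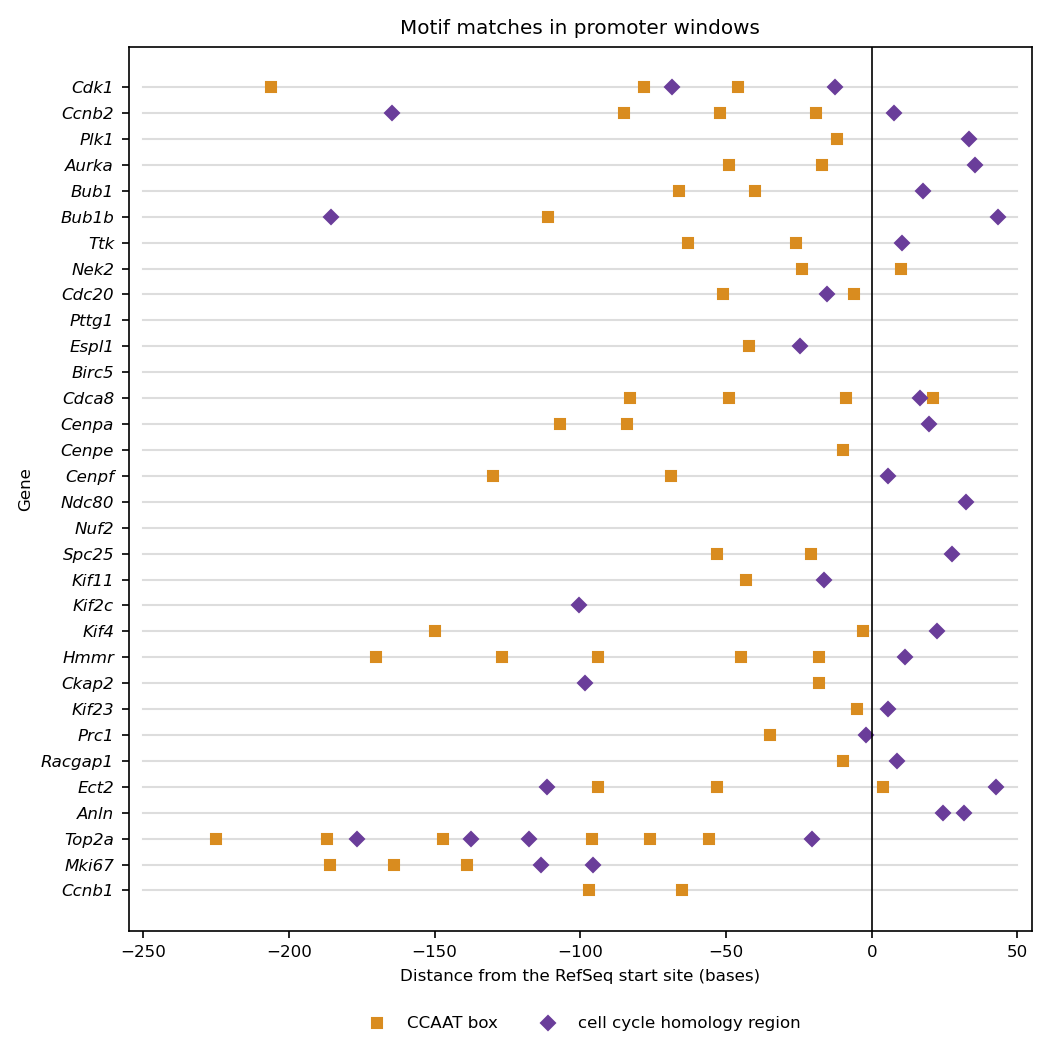
Each line is the promoter window of a listed gene with a RefSeq window (32 genes, Ccnb1 included), from 250 bases before to 50 after the start site on the x axis; squares mark the middle of a CCAAT match and diamonds that of a cell cycle homology region match on either strand. Squares lie before the start in 53 of 56 matches, and diamonds are found on both sides of it.

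Of the genes for entry into mitosis, Cdk1, the kinase that drives entry, was at 58.7 RPM in NC1, 9.79 in NC2 and 7.64 in NC3, against 38.1, 34.6, 83.2 and 55.2 in HC1 to HC4. Its hypercapnia libraries all lay above NC2 and NC3, and HC1, HC2 and HC4 lay below NC1, so the groups overlapped. Its difference in mean log2(RPM + 1), hypercapnia minus normocapnia, was 1.52 (SE 0.77, limma adjusted p = 0.915). Ccna2, the A-type cyclin that acts in S phase and early mitosis, was at 379, 11.2 and 41.1 RPM in normocapnia and at 121, 102, 337 and 250 in hypercapnia. This was the widest gap between NC1 and NC2 in the list, and every hypercapnia library fell inside it. Plk1, the kinase of centrosome maturation and checkpoint recovery, was at 46.5, 3.76 and 4.27 RPM in normocapnia and at 24.7, 25.1, 53.0 and 43.7 in hypercapnia, with a log2 difference of 1.75 (SE 0.91). Aurka, the centrosomal Aurora kinase, differed by 1.59 (SE 0.89), while the cyclin gene Ccnb2 and the phosphatase gene Cdc25c, whose product removes the inhibitory phosphates from CDK1, each differed by 0.95 (SE 0.94). Foxm1, which encodes the transcription factor of the programme itself, was low throughout, at 11.2, 1.45 and 0.344 RPM in normocapnia and 4.02, 3.62, 10.3 and 5.28 in hypercapnia, and the NC3 value rested on 5 reads.

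Among genes of the spindle checkpoint and sister separation, Espl1 encodes separase, the protease that cuts cohesin at anaphase. Its level was 4.55 RPM in NC1 and 1.11 in NC2 with no read in NC3, against 4.96, 5.18, 4.81 and 4.67 in hypercapnia. The 4 hypercapnia libraries were all above the 3 normocapnia libraries, by a narrow margin over NC1, and it was the only gene of the list of which this was true, a share close to the 2.53% of all genes with groups apart in this direction. Its log2 difference was 1.38 (SE 0.57), with the lowest limma p of the list at 0.0558 and an adjusted p of 0.915. An NC3 count of 0 allows up to 3 reads, or 0.207 RPM. Cdc20, the activator of the anaphase-promoting complex that the checkpoint holds back, had the largest log2 difference of the list at 2.2 (SE 1.27), from 84.5, 6.24 and 1.31 RPM in normocapnia to 34.7, 35.7, 79.7 and 67.8 in hypercapnia. All 4 hypercapnia libraries lay between NC2 and NC1, and the SE was among the largest of the list. Nek2, a centrosomal kinase, differed by 1.8 (SE 1.08) and its hypercapnia libraries lay close together, from 16.6 to 20.4 RPM, between 2.35 in NC2 and 33.9 in NC1. The checkpoint kinase genes Ttk, Bub1 and the related Bub1b differed by 1.29, 1.01 and 0.76 (SE 0.89, 0.85 and 0.72). Pttg1, which encodes securin, the inhibitor of separase, went its own way, at 12.5 RPM in NC1, 20.7 in NC2, 3.92 in NC3 and 16.1, 18.0, 15.6 and 9.34 in hypercapnia. NC2 was its highest library, and its log2 difference of 0.44 (SE 0.55) was the smallest of the list.

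The chromosomal passenger complex corrects wrong attachments and later directs cytokinesis. Birc5, which encodes its subunit survivin, was at 149 RPM in NC1, 8.08 in NC2 and 18.9 in NC3, against 71.3, 65.9, 148 and 93.0 in hypercapnia. NC1 and HC3 were level and the other hypercapnia libraries lay below them, for a log2 difference of 1.6 (SE 1.0). Cdca8, the borealin gene, differed by 0.78 (SE 0.69), and Aurkb, the kinase of the complex, by 0.69 (SE 0.46). The scaffold gene Incenp broke the pattern, at 38.05, 28.3 and 0.964 RPM in normocapnia and 50.5, 54.5, 32.0 and 28.2 in hypercapnia. HC1 and HC2 were its highest libraries, HC4 was slightly below NC2, and its log2 difference was 1.64 (SE 1.12). NC3 had 14 reads, and without that library the difference was 0.27.

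All 7 centromere and kinetochore genes had NC1 as their highest library. Spc25, a subunit of the NDC80 complex that binds microtubules, was at 13.3, 2.35 and 1.10 RPM in normocapnia and 8.73, 8.49, 10.6 and 8.73 in hypercapnia, a log2 difference of 1.12 (SE 0.67). Its hypercapnia libraries were close to one another and lay between NC2 and NC1. The other subunits of that complex, Spc24, Nuf2 and Ndc80, differed by 1.51, 1.31 and 0.64 (SE 1.12, 0.87 and 0.71). Cenpf, a large kinetochore protein, Cenpa, the histone H3 variant of centromeres, and Cenpe, a kinetochore motor, differed by 1.03, 0.75 and 0.61 (SE 0.96, 0.67 and 0.73).

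Of the spindle assembly genes and motors, Hmmr, a microtubule-binding spindle protein, was at 21.3, 1.80 and 1.03 RPM in normocapnia and 17.1, 14.1, 17.1 and 14.4 in hypercapnia. Its hypercapnia libraries were all below NC1 and far above NC2 and NC3, and its log2 difference was 1.72 (SE 0.87, limma adjusted p = 0.915). Tpx2, a microtubule nucleation factor that activates Aurora A, followed the shared profile of the list most closely and differed by 1.25 (SE 0.83), the median of the list. The kinesin genes Kif2c (a depolymerase), Kif4 (a chromosome-bound motor) and Kif11 (which pushes spindle poles apart) differed by 1.47, 1.21 and 1.19 (SE 0.91, 0.92 and 0.71). Ckap2, a spindle-associated protein, differed by only 0.5 (SE 0.85), with 36.6, 2.99 and 6.26 RPM in normocapnia and 11.7, 7.13, 20.6 and 19.3 in hypercapnia. It was the single gene of the list whose mean RPM was lower in hypercapnia, with a ratio of means of 0.96. For the other 38 genes the ratio of mean RPM ran up to 2.6, with a median over the list of 1.45.

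Cytokinesis genes were led by Kif20a, a kinesin that carries the passenger complex to the central spindle, at 255, 14.2 and 11.0 RPM in normocapnia and 112, 105, 229 and 173 in hypercapnia, a log2 difference of 2.04 (SE 1.17). Anln, the anillin that scaffolds the contractile ring, was at 110, 10.2 and 1.996 RPM in normocapnia and 44.8, 46.9, 61.5 and 67.2 in hypercapnia, a difference of 1.84 (SE 1.22). In both, NC1 was the highest library and NC3 the lowest. Ect2, the exchange factor that activates RhoA at the furrow, differed by 1.42 (SE 0.91). Its partner gene Racgap1, the microtubule bundler gene Prc1 and the motor gene Kif23 of the central spindle differed by 0.86, 0.84 and 0.62 (SE 0.93, 0.71 and 0.59). Of the genes that shape mitotic chromosomes, Top2a, the topoisomerase that untangles sister DNA, was at 68.7, 7.82 and 3.10 RPM in normocapnia and 38.7, 31.9, 68.0 and 54.9 in hypercapnia (log2 difference 1.8, SE 1.01). Mki67, the Ki-67 coat protein and the usual marker of cycling cells, was at 85.1, 10.9 and 0.413 RPM in normocapnia and 38.7, 33.6, 40.4 and 32.7 in hypercapnia. The NC3 value was 6 reads, the hypercapnia libraries lay within a ratio of 1.24 of one another, and the difference of 1.72 had the largest SE of the list, 1.37. Without NC3 it was 0.22.

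**Figure D3:**
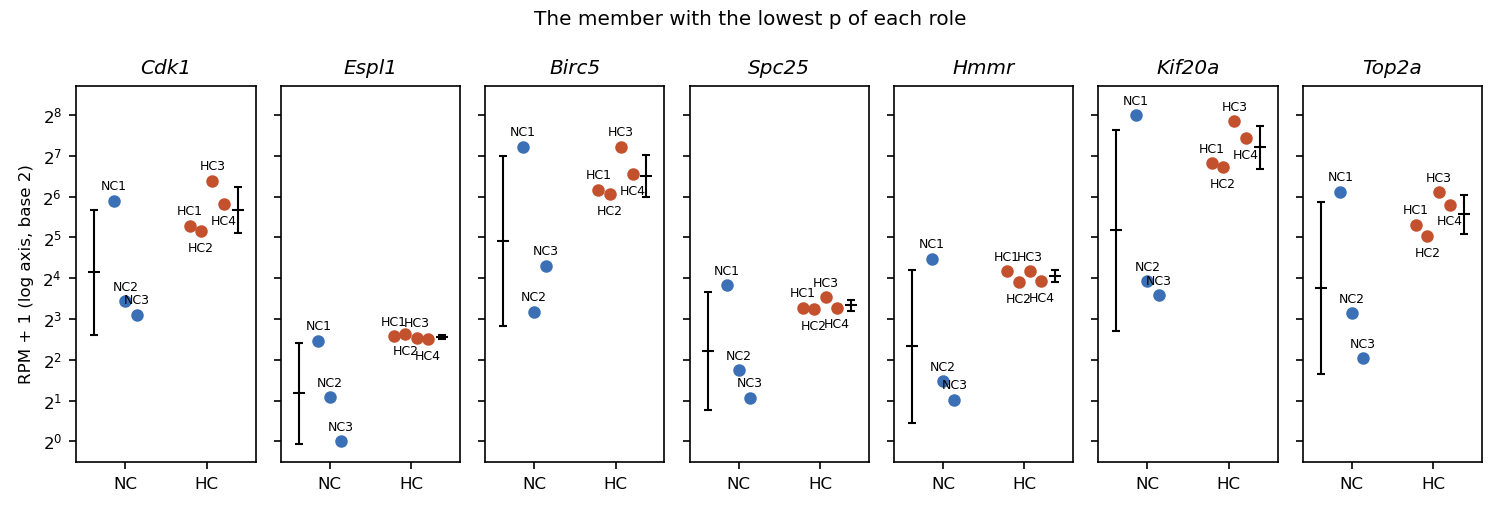
RPM + 1 on a log axis of base 2 for the gene with the lowest p of each role, with every library as a point (NC, n = 3; HC, n = 4); the bars beside the points are the mean and SD of log2(RPM + 1). NC1 lies among or above the hypercapnia libraries in each panel (under HC3 alone for Cdk1) except Espl1, where it lies just under all of them.

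The comparison of hypercapnia with normocapnia asks whether transcription in the sorted cells differed with the carbon dioxide condition. With all 7 libraries, 0 of 39 mitosis genes passed limma at a fold change beyond 1.5 with p below 0.05 before adjustment, where 2.57% of all 23930 genes passed in either direction and 1.43% were called higher. All 39 log2 differences were above 0, as were 62.1% of those of genes that averaged 1 RPM or more. They ran from 0.44 to 2.2 with a median of 1.25, and 37 were past the fold change, but the SEs ran from 0.46 to 1.37. The unadjusted p ran from 0.0558 to 0.58, with 0 genes under 0.05, and the adjusted p from 0.915 to 0.948. Tested on recovered whole reads, 0 of 39 were called by edgeR (6.03% of 13293 genes) and 0 by DESeq2 (6.25% of the 20858 genes given a p), and 0 had an unadjusted p under 0.05 in either. DESeq2 gave no p for 8 of the 39, so its counts cover 31: the 8 were Bub1, Nek2, Cenpf, Spc24, Kif2c, Hmmr, Kif20a and Anln. These fits model counts rather than logarithms, and their median log2 differences were smaller, at 0.65 and 0.62, with Ckap2 at -0.01 in DESeq2. The median difference stayed above 0 under other scalings. Over genes that averaged 1 RPM or more, the median log2 difference was 0.16 in RPM, 0.04 after median-of-ratios scaling and -0.01 after quantile normalization, and relative to it the median mitosis gene stood at 1.08, 1.14 and 0.97.

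Without NC1 the comparison read otherwise. In that fit, 36 of 39 mitosis genes rose in hypercapnia at the same thresholds and 0 fell, where 6.25% of all genes were called higher and 2.07% lower. The median log2 difference was 2.25 (0.57 to 3.67), against 0.36 over genes that averaged 1 RPM or more, and the groups did not overlap for 37 of 39, where 13.2% of all genes had hypercapnia apart and higher. Hmmr rose by 2.8 (SE 0.17), Nek2 by 3.11 (SE 0.33), Kif20a by 3.45 (SE 0.39) and Cdc20 by 3.67 (SE 0.64) on the log2 scale. Pttg1, Incenp and Prc1 did not pass, with differences of 0.57 (SE 0.68), 2.42 (SE 1.17) and 1.49 (SE 0.62). After Benjamini-Hochberg adjustment of the limma p over all genes 0 of 39 passed, the lowest adjusted p being 0.0676 for Hmmr and the highest 0.834 for Pttg1. The choice of NC1 followed from its values for genes such as these, so the counts without it are a description of how far 1 library decides the result. Leaving out another normocapnia library instead moved the median to 0.73 (without NC2) or 0.65 (without NC3), with 0 mitosis genes called in either fit (5.04% and 2.57% of all genes).

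**Figure D4:**
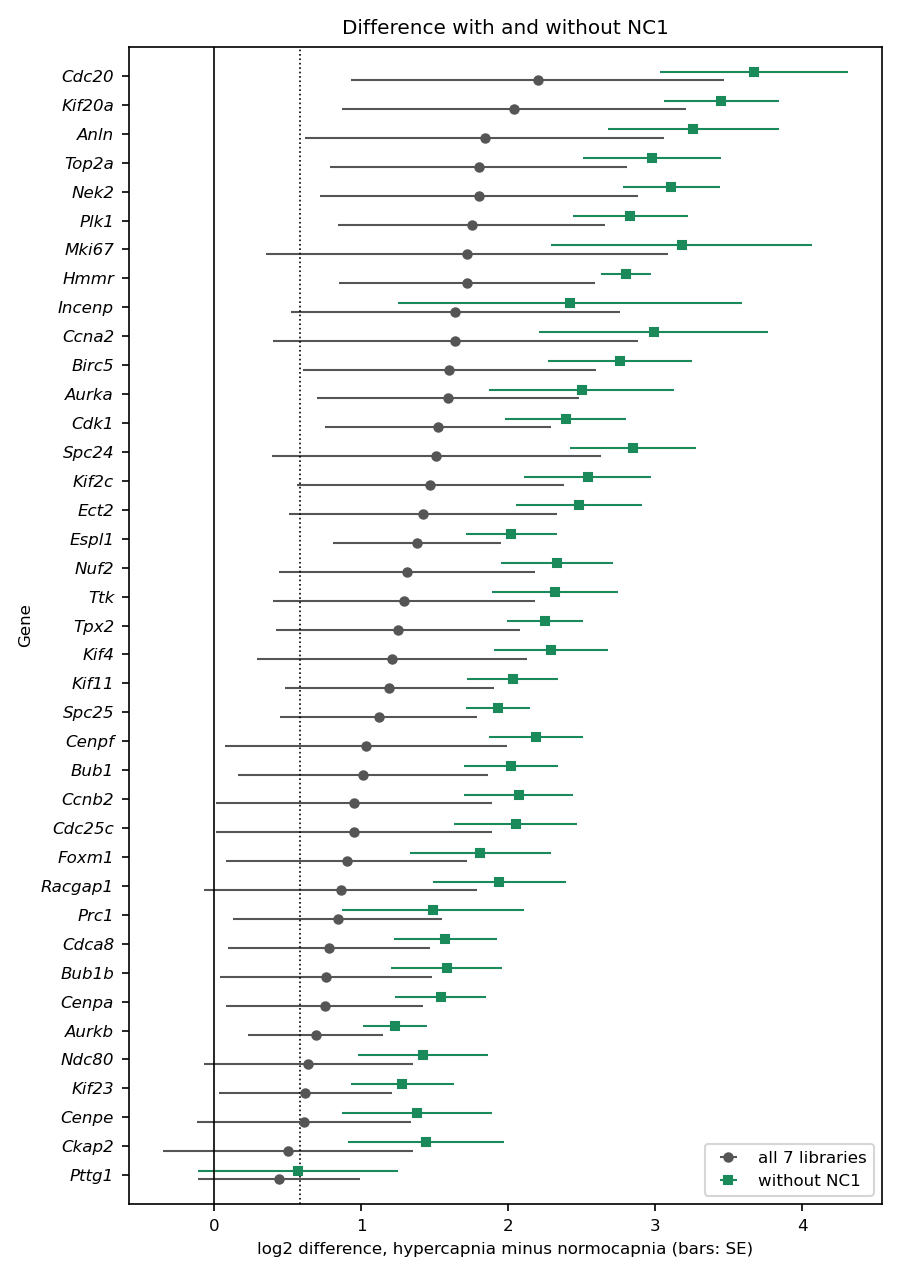
Log2 difference in log2(RPM + 1), hypercapnia minus normocapnia, with its SE from limma for each mitosis gene, with all 7 libraries (circles) and without NC1 (squares); the dotted line marks a fold change of 1.5. The median moves from 1.25 to 2.25 and most error bars shorten when NC1 is left out.

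The genes differed in how closely they followed the list. Each gene, centred over the libraries, was set against the median of all 39. The root mean square departure on the log2 scale was smallest for Tpx2 at 0.08, and the largest were 1.18 for Incenp, 1.12 for Pttg1, 0.96 for Mki67, 0.79 for Cdc20, 0.71 for Ccna2 and 0.70 for Anln. Pttg1 departed most in NC2, by 2.32 above the list, and Ccna2 in the same library by -1.55. Incenp, Mki67, Cdc20 and Anln departed most in NC3, by -1.92, -2.23, -1.79 and -1.67. That library also had few reads for many of the genes. Of the 39, 18 had fewer than 50 reads in NC3 and 10 in NC2, while the lowest count of any was 58 in the hypercapnia libraries and 102 in NC1.

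Other genes of mitosis were read from wider lists, and 117 of them were in the table. Of these, limma called 1 higher and 2 lower with all libraries, with a median log2 difference of 0.58 and 96 above 0, a share called close to the 2.57% of all genes. Without NC1, 58 were called higher and 3 lower, where 6.25% and 2.07% of all genes were. The gene called higher was Haus8, a subunit of the augmin complex that branches spindle microtubules, at 24.7, 21.6 and 14.1 RPM in normocapnia and 38.4, 36.7, 37.1 and 31.8 in hypercapnia (log2 difference 0.84, SE 0.2, limma adjusted p = 0.777). The groups were apart for Haus8, unlike most genes of the main list. Those called lower were Stag2, a cohesin subunit (-0.78, SE 0.28), and Anapc7, a subunit of the anaphase-promoting complex (-0.72, SE 0.27), both with an adjusted limma p of 0.915. Without NC1, Haus8 and Stag2 were called again in the same direction and Anapc7 was not (-0.68). By list, the median difference was 1.11 for 25 other spindle genes (1 called), 0.63 for 34 other kinetochore and checkpoint genes (0 called), 0.63 for 23 other entry regulators and kinases (0 called), 0.47 for 17 condensin and cohesin genes (1 called, lower) and 0.24 for 18 genes of the anaphase-promoting complex (1 called, lower). In the lists with no call, the lowest p belonged to Bub3, a checkpoint protein (0.37, SE 0.12, groups apart and under the fold threshold), and to Rbl2, a pocket protein that represses cell cycle genes in resting cells (-0.74, SE 0.31).

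DNA replication genes showed the same order of libraries as the mitosis genes, with smaller differences. Of 41, limma called 3 higher and 0 lower, where 1.43% of all genes were called higher, and the median log2 difference was 0.78. Without NC1, 35 were called higher, where 6.25% of all genes were. Rpa1, the large subunit of the single-strand binding protein, was at 142, 95.5 and 100 RPM in normocapnia and 189, 199, 196 and 183 in hypercapnia (0.78, SE 0.15, adjusted p = 0.65). Prim2, a primase subunit, and Orc1, of the origin recognition complex, differed by 0.66 (SE 0.15, adjusted p = 0.752) and 0.88 (SE 0.34, adjusted p = 0.915) in limma. For Rpa1 and Prim2 the groups did not overlap. Of 8 CDK inhibitor genes 0 were called, with a median of 0.19, and Cdkn2d, the one with the lowest p, differed by 0.82 (SE 0.46).

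Markers of cell types moved between the libraries as well. Summed over 14 satellite cell markers, the level was 3717.7, 1032.0 and 664.7 RPM in normocapnia and 842.0, 815.4, 1731.6 and 1463.6 in hypercapnia, so NC1 was the highest library, as for the mitosis genes. The sum put NC2 above HC1 and HC2, but the median marker, centred on its mean over the libraries, did not. On the log2 scale it was at -1.02 in NC2 and -1.13 in NC3, under -0.55 in HC1 and -0.56 in HC2. Pax7 was at 268, 8.25 and 4.34 RPM in normocapnia and 21.5, 20.1, 79.5 and 59.7 in hypercapnia. Of the 14, 0 were called with all libraries and 6 were called higher without NC1 (6.25% of all genes), a library left out for values such as these. Myog, a factor of differentiating myoblasts, was at 871, 17.8 and 0.138 RPM in normocapnia and 57.2, 30.0, 143 and 64.2 in hypercapnia. Summed over 13 macrophage markers the level was 12880.1 RPM in NC1, 23927.8 in NC2, 35082.2 in NC3 and from 20668.5 to 25677.2 in hypercapnia, so these markers were read in every library, although the labels give the cells as Pax7+ stem cells. Lyz2, the macrophage lysozyme, was at 8354, 13313 and 29108 RPM in normocapnia and from 13410 to 16728 in hypercapnia. Lyz2 made up much of that sum, and the median macrophage marker, centred on its mean over the libraries, was at -0.61 in NC1, 0.19 in NC2 and -0.18 in NC3 on the log2 scale. The macrophage marker C1qa stayed under 1 RPM in every library, as did Msc of the satellite cell list. Adgre1, the F4/80 antigen, was the one macrophage marker called higher with all libraries, from 109, 149 and 70.5 RPM in normocapnia to 392, 429, 151 and 184 in hypercapnia (log2 difference 1.31, SE 0.49, limma adjusted p = 0.915), and it is named for that call. Without NC1 its difference was much the same at 1.34, but the call was lost at an unadjusted limma p of 0.0879. In that fit 0 macrophage markers were called. In bulk RNA fewer cells of a type and less RNA per cell cannot be told apart, and the part of these cell types in the differences of the mitosis genes was not tested.

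Endothelial markers (8 genes) summed to 250.7, 123.7 and 90.5 RPM in normocapnia and to 77.7, 60.0, 577.7 and 441.6 in hypercapnia, with Pecam1 at 317 RPM in HC3 and 229 in HC4. Fibro-adipogenic markers (7 genes) ran from 1067.4 to 1896.9 RPM in normocapnia and from 973.2 to 2371.6 in hypercapnia, with Dcn the highest. HC3 and HC4 were thus the higher hypercapnia libraries for these lists as for 31 of the mitosis genes. Neutrophil markers (7 genes, Csf3r the highest) summed to between 65.4 and 293.6 RPM, lymphocyte markers (8, Cd79b) to between 8.1 and 16.3, and myofiber and differentiation markers (8, Myog) to between 83.8 and 2178.1. The neutrophil markers Ly6g and Mpo were under 1 RPM in every library. Red blood cell markers (2 genes, Alas2 the higher) summed to 15.7, 0.2 and 0.5 RPM in normocapnia and 1.4, 0.3, 5.6 and 3.5 in hypercapnia. NC1 was their highest library, as for most mitosis genes. No marker of the lists in this paragraph was called with all libraries, where 2.57% of all genes were called. For so few genes that is close to the share of all genes.

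**Figure D5:**
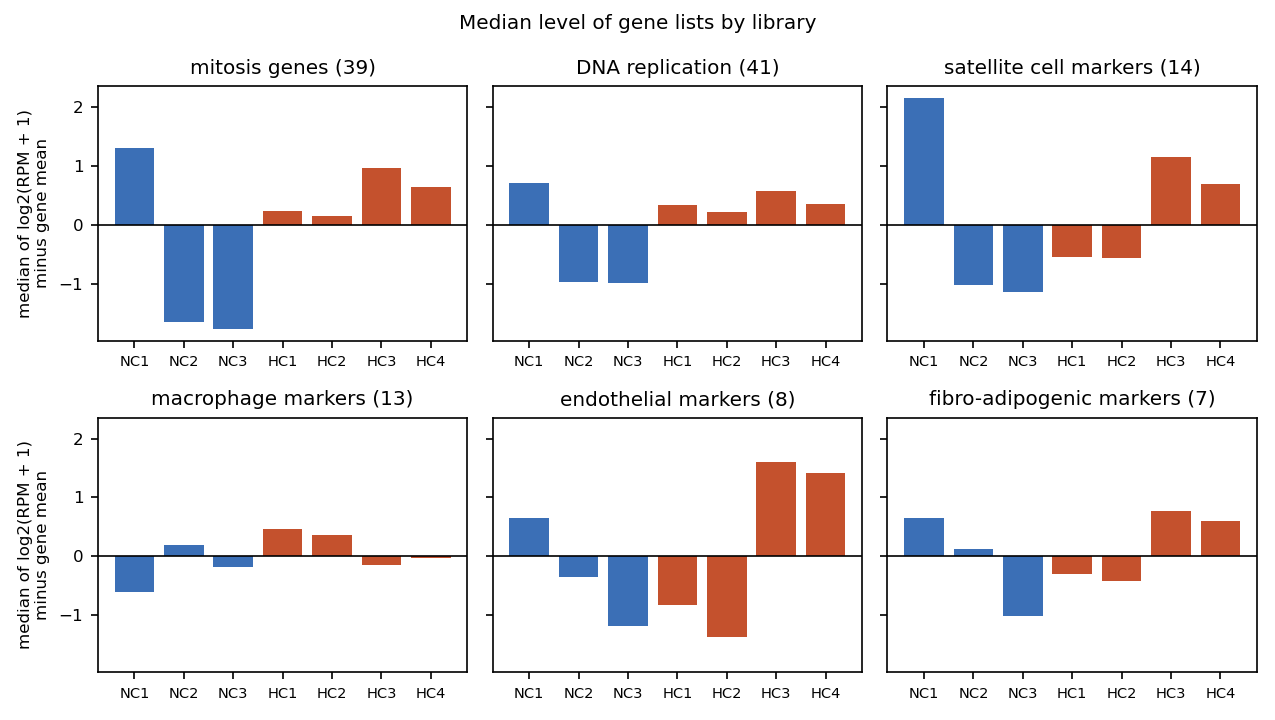
Bars give, for each library, the median over a gene list of log2(RPM + 1) minus the mean of the gene over the 7 libraries, with the number of genes in parentheses (blue, normocapnia; orange, hypercapnia). Mitosis and DNA replication genes share an order in which NC2 and NC3 are lowest, NC1 is highest for mitosis genes (1.3) and for satellite cell markers (2.16), and lowest for macrophage markers (-0.61).

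The libraries also differed in Xist, the RNA that coats the inactive X chromosome of female cells, at 701 RPM in NC1, 619 in NC2, 445 in HC1 and 475 in HC2 and at no more than 0.125 in NC3, HC3 and HC4. Among the 4 libraries with Xist, the mean of HC1 and HC2 minus that of NC1 and NC2 had a median over the mitosis genes of 0.34 on the log2 scale (-0.28 to 1.06), with 33 genes above 0 and 6 below, and HC1 and HC2 both lay between NC2 and NC1 for 36. Among the 3 without it, HC3 and HC4 lay above NC3 for 39 of 39 genes, by a median of 2.58 (1.1 to 5.01). The same medians over genes that averaged 1 RPM or more were -0.17 and 0.76. With 1 normocapnia library on one side, this second difference had no replicate in normocapnia and was not tested. With Xist as a covariate limma called 2 of 39, Espl1 and Incenp, where 5.5% of all genes were called. Espl1 was the 1 gene called with only genes averaging 1 RPM or more (4.46% of 12504) and the 1 called with median-of-ratios scaling (2.56% of all genes).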

How the data were processed

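The labels describe AmpliSeq transcriptome libraries from 3 normocapnia and 4 hypercapnia samples of sorted Pax7-GFP cells, sequenced on an Ion S5 instrument. The authors deposited a table of RPM, read counts divided by the library's total over the panel. Their aligner is not given in the sources used here, nor is a genome build, and the submitters' processing notes name the Transcriptome Analysis Console. Whole read counts were recovered from the steps of the deposited RPM values (100% of values whole within 0.05 reads). Totals ran from 14527445 to 23388710 reads, so 1 read was worth 0.0428 to 0.0688 RPM and a floor of 3 reads at most 0.207 RPM, which covers counting error only. All library pairs differed by more than counting noise.

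The 40 genes and all other lists were chosen with earlier results of these data known. Differences were fitted with limma 3.58.1 (R 4.3.3) to log2(RPM + 1) of all 23930 genes, with no filter and p adjusted by Benjamini-Hochberg over all of them, and genes were called at a fold change beyond 1.5 with p below 0.05 before adjustment, thresholds taken from the study. A log2(RPM + 1) difference understates the change of low genes. Every mitosis gene is named. From each other list the genes called (at most 3, by p) or else the gene with the lowest p are named, and from each marker list Pax7, Lyz2 or the gene with the highest mean. Alternatives were a pseudocount of 0.1 or 5 RPM, only genes averaging 1 RPM, scaling by median of ratios or by quantiles, each library left out, a replicate block, Xist as a covariate, and tests of recovered reads with DESeq2 1.42.0 or edgeR 4.0.16 (filtered or not). The comparisons by Xist level were added after the data were seen. The fits were run on simulated counts with equal spread in both groups and large changes in well-read genes. That run does not show how they behave where counts are low or the groups differ in spread, as here. Promoter windows are those of RefSeq for GRCm38.p6 and serve for sequence only.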

Additional observations from a re-analysis of the deposited data

Results flagged for a closer look

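In 3 of 39 mitosis genes a single hypercapnia library lay far from the other 3, by Dixon's ratio of its gap to the range of the group, which chance alone gives in about 1 in 20 groups. In each it was HC3, the highest library, at 40.7 RPM for Cenpa, 10.6 RPM for Spc25 and 12.0 RPM for Kif11. The cause was not tested.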

How the results depend on the processing

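All 39 mitosis genes kept a log2 difference above 0 under both other pseudocounts, the filter, both scalings, edgeR, the Xist covariate, the replicate block and without each hypercapnia library, and 0 had an adjusted p under 0.05 under any alternative. DESeq2 put Ckap2 at -0.01 and gave no p for 8 genes. Without 1 library each, the median difference ran from 0.65 to 2.25 and the number of genes called from 0 to 36, the 36 without NC1. The sign changed for Cenpe, from -0.10 (without NC2) to 1.38, Ckap2, from -0.18 (without NC2) to 1.44, and Pttg1, from -0.16 (without NC3) to 0.91. Other genes kept their sign but shrank without NC3, among them Mki67 from 1.72 to 0.22, Anln from 1.84 to 0.65, Racgap1 from 0.86 to 0.02 and Bub1b from 0.76 to 0.09. The number of mitosis genes called, 0 in the report, was 1 (Espl1) with the filter (558 of 12504 genes called), 1 (Espl1) with median-of-ratios scaling (612 of 23930) and 2 (Espl1 and Incenp) with Xist as a covariate (1316). The median was 0.34 in the libraries with Xist alone and 2.58 in those without Xist alone. Of all genes, 615 were called (343 higher, 272 lower), and from 376 (without HC2) and 385 (without HC1) to 1205 (without NC2) and 1990 (without NC1) when 1 library was left out, 802 by edgeR (294 higher, 508 lower), 1049 by edgeR without a filter (407 higher, 642 lower) and 1304 by DESeq2 (519 higher, 785 lower). Causes of these changes were not tested. Same-numbered libraries deviated from their group means with r = -0.349, 0.503 and -0.0443. The 0.503 was the highest r of any normocapnia with any hypercapnia library, and same-numbered libraries matched in having Xist or not. Deviations from the mean of so few libraries cannot settle whether replicate numbers pair them. With the replicate block 0 mitosis genes were called and the median was 1.21, with 598 of all genes called. Counts were low in NC3, where 18 mitosis genes had fewer than 50 reads, and in NC2, where 10 had, which limits the precision of those values, and the 3 normocapnia libraries, which lie far from one another, limit the rest.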
